A study of Mus musculus with 54 samples.

Results

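Transplanted mouse haematopoietic cells collected on day 5 from libraries labelled spleen were compared with those from libraries whose label includes bone marrow. The members were the cells annotated as transplanted in 6 day 5 libraries, 328 of the 2301 annotated cells of the series and of its 336 transplanted cells of day 5. The spleen group comprised L68, L69 and L70 (156 cells). The marrow-containing group comprised L72, labelled bone marrow, and L71 and L86, both labelled bone marrow and spleen (172 cells), so it holds spleen cells as well, and the organ of each cell in L71 and L86 is not given. The remaining spleen library of day 5, L66, had 8 cells and was left out. In every library the label gives C57BL/6 mice aged 8-10 weeks as the strain and age, and the annotation gives GFPP as the phenotype of all 328 cells. The recipients, their conditioning and the number of animals behind each library are not given in the sources used here, so every p-value below measures the spread between libraries, which may be technical. Single cells were lysed fresh and amplified by a modified Smart-seq2 protocol, which captures the 3′ ends of mRNA and yields a count per gene and cell.

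After transplantation, stem and progenitor cells lodge in both marrow and spleen and divide there, and the mouse spleen is a known site of early blood formation after transplantation. Immediate early genes encode transcription factors of the AP-1 (FOS, JUN, ATF3), EGR, NR4A and KLF families whose mRNA is made within minutes of a stimulus without new protein. Their proteins switch on later genes, and feedback genes such as Dusp1, a phosphatase of MAP kinases, and Zfp36, which binds AU-rich mRNAs and hastens their decay, end the response.

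The libraries held 46 to 72 cells and 11463810 to 19103472 counts each, and the median cell carried 6442 detected genes. L86 was the shallowest, with a median of 125202 counts per cell against 247785 to 346255 in the other 5. L86 also stood apart in other ways. It carried Y-linked mRNA (Eif2s3y at 72.1 CPM, counts per 1000000) and Xist at 3.58 CPM, whereas L68 to L72 had 0 counts of 4 Y-linked genes and Xist at 256 to 293 CPM, and its Ly6a level was 1778 CPM against 348 to 469. Kit, the stem cell factor receptor, Gata2 and Meis1 were present in all 6 libraries (Kit 68.7 to 115 CPM), markers of the progenitors that the predicted types name, and 4 of 5 erythroblast markers, Hba-a1 among them, were at 0 in all 6. Some markers of mature cells were counted in most cells of particular libraries. S100a8, a neutrophil gene, was counted in all 50 cells of L69 and all 54 of L72 (747 and 745 CPM). Of the other neutrophil markers, S100a9 was also in all of these cells. Ngp, Camp and Ltf were in 5, 1 and 1 cells of L69 and 50, 49 and 22 of L72. Jchain, a plasma cell gene, was counted in 38 of 50 cells of L69, but the plasma cell markers Sdc1 and Mzb1 in 7 and 1. Mcpt8 and Prss34, basophil genes, were counted in all 72 cells of L86, and Cpa3 and Ms4a2 of the same list in 38 and 17. The part of this RNA in the results was not tested.

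The promoters of 6 genes that were higher in the spleen libraries are shown because each holds TGACG, the core of the cyclic AMP response element, and they were picked for it after the search. Each line is the 250 bases before a RefSeq transcription start (GRCm38.p6), written 5′ to 3′ on the gene's strand, with TGACG on either strand (CGTCA when read on the other) in capitals. They lie at Fos at chr12:85473640-85473889 on the plus strand, Junb at chr8:84978749-84978998 on the minus strand, Nr4a1 at chr15:101266596-101266845 on the plus strand, Dusp1 at chr17:26508473-26508722 on the minus strand, Btg1 at chr10:96616751-96617000 on the plus strand and Rgs2 at chr1:144004150-144004399 on the minus strand.
Fos: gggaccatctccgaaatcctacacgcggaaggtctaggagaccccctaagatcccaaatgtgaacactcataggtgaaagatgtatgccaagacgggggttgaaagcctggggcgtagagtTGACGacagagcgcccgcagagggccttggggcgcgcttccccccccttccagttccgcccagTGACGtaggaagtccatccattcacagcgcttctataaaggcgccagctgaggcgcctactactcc
Junb: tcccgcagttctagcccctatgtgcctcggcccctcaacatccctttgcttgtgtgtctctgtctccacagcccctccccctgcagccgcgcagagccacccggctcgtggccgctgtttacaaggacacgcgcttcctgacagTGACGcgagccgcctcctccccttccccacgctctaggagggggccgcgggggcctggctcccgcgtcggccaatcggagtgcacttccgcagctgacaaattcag
Nr4a1: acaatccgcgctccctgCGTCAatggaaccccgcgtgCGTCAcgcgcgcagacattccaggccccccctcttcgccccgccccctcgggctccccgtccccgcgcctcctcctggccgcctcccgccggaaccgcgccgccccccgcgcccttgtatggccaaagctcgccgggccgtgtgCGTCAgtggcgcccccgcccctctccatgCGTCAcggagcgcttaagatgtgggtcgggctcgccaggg
Dusp1: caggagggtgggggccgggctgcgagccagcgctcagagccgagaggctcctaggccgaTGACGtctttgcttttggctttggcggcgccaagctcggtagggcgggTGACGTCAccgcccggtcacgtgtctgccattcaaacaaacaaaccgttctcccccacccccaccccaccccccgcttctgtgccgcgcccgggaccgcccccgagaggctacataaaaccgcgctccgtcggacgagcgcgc
Btg1: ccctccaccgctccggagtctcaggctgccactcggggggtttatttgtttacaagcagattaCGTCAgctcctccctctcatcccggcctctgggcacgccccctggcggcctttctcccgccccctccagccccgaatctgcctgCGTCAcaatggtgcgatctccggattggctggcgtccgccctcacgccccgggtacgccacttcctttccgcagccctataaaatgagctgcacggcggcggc
Rgs2: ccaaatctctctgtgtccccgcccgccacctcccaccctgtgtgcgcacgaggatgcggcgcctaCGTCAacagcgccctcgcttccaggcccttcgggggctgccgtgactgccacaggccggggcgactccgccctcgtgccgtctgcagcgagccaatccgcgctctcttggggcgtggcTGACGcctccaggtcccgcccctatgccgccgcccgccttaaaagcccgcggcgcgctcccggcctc
Of the panel of 12 immediate early genes described next, 10 were matched to a promoter (Egr1 and Ier2 were not), and 7 of these 10 held TGACG within 250 bases before to 50 bases after the start: Atf3, Btg2, Dusp1, Fos, Junb, Klf4 and Nr4a1. It was found in 20.8% of all 32851 promoters of that length in the table. These belong to 27025 genes, tested here or not, so the shares of all promoters are not those of the genes tested. The panel was chosen with its levels by organ known. The full palindrome TGACGTCA, which contains TGACG on both strands, was in Dusp1 and Btg2, against 1.79% of all promoters. The EGR site GCGNGGGCG was in 4 of the 10 (5.55% of all), the serum response element (CArG box) in Zfp36 (1.63% of all) and the AP-1 site TGANTCA in 0 of the 10 (7.81% of all), both strands searched. Of the 31 genes called higher in spleen in either comparison below, 22 were matched and 12 of these held TGACG in at least 1 of their starts (33 starts, 36.4% of them). A match is a run of letters and no measured site.

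The spleen cells carried 3.24 times as much immediate early mRNA as the marrow-containing libraries. The summed level of the 12 genes (Fos, Jun, Junb, Egr1, Ier2, Nr4a1, Atf3, Klf4, Klf6, Dusp1, Zfp36 and Btg2) was 4162 ± 282 CPM (SD, n = 3) in spleen, with a range of 3854 to 4408, and 1286 ± 894 CPM (n = 3) in the marrow-containing libraries. The groups did not overlap, but the marrow-containing libraries differed among themselves: the level was 2314 CPM in L71, 864 in L72 and 681 in L86. An exact permutation test of 3 against 3 libraries cannot go below 0.10, and these genes were chosen with their levels by organ known, so the sum is given as a description.

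In single cells the 3 spleen libraries also had the highest medians. The median cell carried 3989, 3839 and 3779 CPM of the 12 genes in L68, L69 and L70, and 1338, 652 and 488 CPM in L71, L72 and L86. The interquartile range was 759 to 4257 CPM in L71, a library of both organs, 405 to 1076 CPM in L72 and 1871 to 7248 CPM in L69, so cells of L71 reached into the range of the spleen libraries. After each cell was thinned to 20000 counts, the median cell had 9, 10 and 10 of the 12 genes in the spleen libraries and 9, 5 and 4 in L71, L72 and L86.

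**Figure D1:**
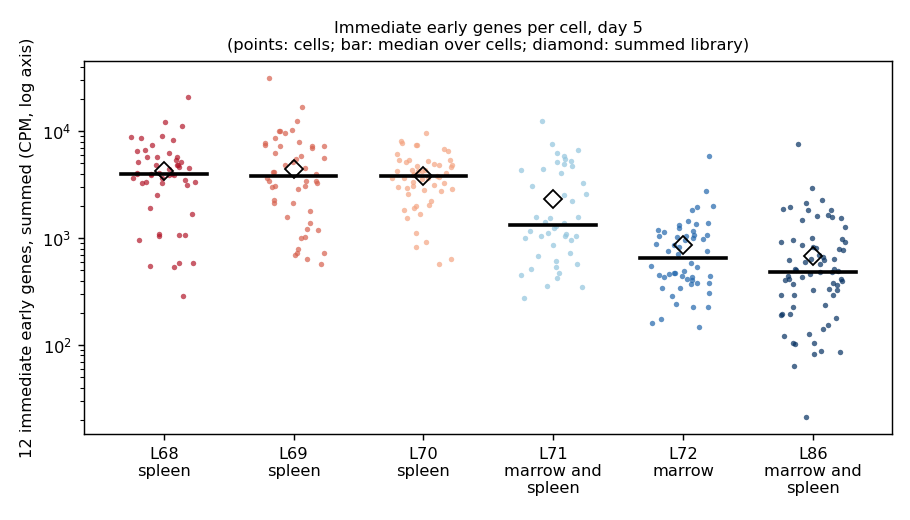
Summed CPM of 12 immediate early genes in each of the 328 cells (points, log axis), with the median over cells (bar) and the value of the summed library (diamond). The medians of the 3 spleen libraries sit between 3779 and 3989 CPM, and those of L71, L72 and L86 at 1338, 652 and 488 CPM.

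Shares of cells with a count, at 20000 counts per cell, were compared for single genes. Of the 12 panel genes, Jun, Ier2 and Klf4 overlapped between the groups (two-sided exact permutation p = 0.2, 0.2 and 0.4, n = 3 each). L71 was above L69 for Jun, above L68 for Ier2 and above all 3 spleen libraries for Klf4. The other panel genes had every spleen library above every other, and Nr4a1, Klf6 and Atf3 of these are given. Nr4a1, an orphan nuclear receptor induced by receptor signals, was counted in 75%, 74% and 81.5% of cells of L68, L69 and L70 (exact 95% binomial intervals within 59.7 to 90.7%). In L71 it was 54.3% (39.01 to 69.1%), in L72 18.5% (9.25 to 31.4%) and in L86 13.9% (6.87 to 24.1%). The means were 76.8% ± 4.06 and 28.9% ± 22.1 (SD, n = 3 each, two-sided exact permutation p = 0.1, the smallest 3 against 3 allows). Without thinning, the means were 98.7% and 64.1%. Klf6 was counted in 85.9% ± 3.10 of spleen cells and 40.2% ± 11.3 of marrow-containing cells, and Atf3 in 51.4% ± 13.2 and 10.3% ± 15.6 (exact permutation p = 0.1 for both, n = 3 each). Without thinning, Klf6 was counted in 100% of cells of the 3 spleen libraries and of L71, in 79.6% of L72 and 58.3% of L86 (exact permutation p = 0.4, n = 3 each), so the groups met, and Atf3 in 94.9% and 30.3%. Atf3 had a count in 0 of 54 thinned cells of L72, which allows a share of up to 6.60%. Binomial intervals cover counting error only.

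Genes were tested with edgeR's quasi-likelihood test on counts summed per library. In all transplanted cells 16 of 11817 genes passed a Benjamini-Hochberg adjusted p of 0.05 (0.135%), 12 of them higher in spleen (0.102%) and 4 lower (0.0338%), and 1203 genes had an unadjusted p under 0.05. Among tMPP2 cells alone, the most frequent predicted type (166 of the 328 cells, 21 to 38 per library), 32 of 10939 genes passed (0.293%), 25 higher (0.229%) and 7 lower (0.0640%). The tMPP2 cells are part of all cells, so the comparisons are not independent, and 6 genes were called higher and 1 lower in both: Marcks, Dusp2, Rgs2, Pde4b, Btg1 and Tmsb10, and Slc14a1. CPM values of single genes below are scaled with TMM factors, and a log2 change is spleen minus marrow-containing. The calls were lost when a spleen library was left out: without L68, L69 or L70 in turn, 0 genes were called in all cells (880, 1020 and 1205 at an unadjusted p under 0.05), and 0, 11 and 13 in tMPP2 cells. Without L71, 89 and 69 genes were called, without L72 2 and 6, and without L86 12 and 15.

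Of the transcription factors of the early response few passed over all genes. Of the 10 AP-1 genes tested in all cells, 0 were called, 9 had a log2 change above 0 (51.3% of all tested genes did) and 8 had all spleen libraries above all others, a pattern that 8.49% of all tested genes showed; their median log2 change was 1.60 against 0.02 for all genes. In tMPP2 cells Fos and Junb were called, where 0.229% of all tested genes were called higher. There 9 of 10 were above 0 (51.7% of all tested genes) and the median was 1.67 against 0.03. Fos (GRCm38 chromosome 12, 85473890 to 85477273) was at 951, 820 and 769 CPM in tMPP2 cells of L68, L69 and L70, and at 255, 65.2 and 96.2 CPM in L71, L72 and L86. Every spleen library was above every other, with L71 nearest (log2 change 2.61, SE 0.35, adjusted p = 0.00594). In all cells the Fos levels were 841, 868 and 712 CPM against 396, 67.9 and 112 CPM, and the change did not pass (2.07, SE 0.48, adjusted p = 0.155). Junb, a partner of FOS, was at 369, 349 and 330 CPM in the tMPP2 cells of the spleen libraries and at 178, 53.3 and 100.2 CPM in L71, L72 and L86 (log2 change 1.66, SE 0.31, adjusted p = 0.0333). Atf3 ranged from 108 to 252 CPM in the tMPP2 cells of spleen, and was at 28.8, 0.13 and 0 CPM in L71, L72 and L86 (adjusted p = 0.146, not called).

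Of the 23 EGR, NR4A and other immediate early genes tested in all cells, 2 were called higher (Btg1 and Gadd45b), beside 0.102% of all genes. Of the 23, 21 had a log2 change above 0 (51.3% of all genes) and 15 had spleen above without overlap (8.49% of all genes). The median was 1.65. In tMPP2 cells 22 were tested and Klf6, Ier2 and Btg1 were called (median 1.89), where 0.229% of all genes were called higher. Klf6, a zinc finger factor, was at 428, 243 and 288 CPM in the spleen libraries and 87.9, 42.3 and 27.7 CPM in L71, L72 and L86 (tMPP2 cells, log2 change 2.59, SE 0.35, adjusted p = 0.00594). Btg1, an anti-proliferative gene, was at 109, 91.7 and 101 CPM in all cells of the spleen libraries and at 36.7, 32.3 and 27.3 CPM in the others. For Btg1 the 3 marrow-containing libraries lay close together, and L71 was not set apart (log2 change 1.65, SE 0.21, adjusted p = 0.0158). Gadd45b, a stress-induced gene, was at 94.5, 43.7 and 59.9 CPM against 17.9, 8.00 and 12.4 CPM (log2 change 2.37, SE 0.37, adjusted p = 0.0379). Nr4a1 was at 226, 177 and 233 CPM in spleen and 110, 24.1 and 9.33 CPM in the others, and the change did not pass (log2 change 2.14, SE 0.62, adjusted p = 0.252). Egr1, a zinc finger factor, was among the least separated, at 195 to 269 CPM in spleen against 155, 142 and 46.0 CPM (adjusted p = 0.323). All 12 panel genes had spleen above without overlap in all cells and 11 of 12 in tMPP2 cells, where Klf4 overlapped. In L66, the spleen library of 8 cells, 7 of the 12 were below their unscaled CPM in L71 (Fos, Junb, Egr1, Atf3, Klf4, Zfp36 and Btg2). L66 held other predicted types: 62.5% tMPP3, 25% tGM1 and 12.5% tMPP4, with 0% tMPP1, tMPP2 and tMPP5. Its values are therefore not those of like cells.

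Among genes that end or limit signals, Dusp2 and Rgs2 were called of 18 feedback inhibitors tested in all cells (0.102% of all genes were called higher). Of the 18, 17 had a log2 change above 0 (51.3% of all genes) and 11 had spleen above without overlap (8.49% of all genes), with a median of 1.12. In tMPP2 cells 4 of 18 were called (Dusp2, Rgs1, Rgs2 and Zfp36, median 1.44), where 0.229% of all genes were called higher. Dusp2, a nuclear MAP kinase phosphatase, was at 401, 345 and 365 CPM in all cells of spleen and 157, 52.1 and 82.97 CPM in L71, L72 and L86 (log2 change 1.93, SE 0.31, adjusted p = 0.0460). Rgs2, which shortens G protein signals, was at 360, 335 and 333 CPM against 147, 72.04 and 63.3 CPM (log2 change 1.87, SE 0.27, adjusted p = 0.0316). For Rgs2 L71 was again between the spleen libraries and the other two. Pde4b, a phosphodiesterase that degrades cyclic AMP and was in none of the lists, was at 169, 134 and 113 CPM against 49.7, 39.3 and 39.8 CPM (log2 change 1.69, SE 0.21, adjusted p = 0.0158).

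**Figure D2:**
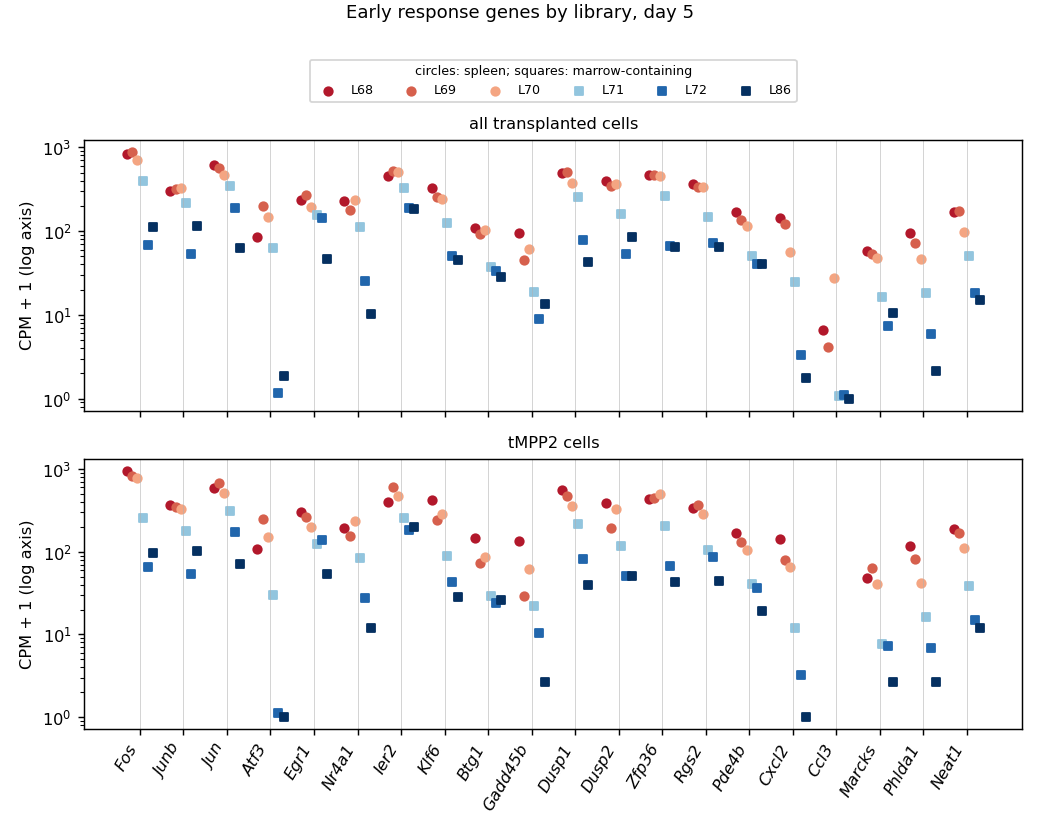
CPM + 1 (log axis) of 20 early response genes in the 3 spleen libraries (circles) and the 3 marrow-containing libraries (squares), in all transplanted cells (upper) and in tMPP2 cells (lower, where Ccl3 was below the count filter). Circles lie above squares for all genes shown in both panels, and L71 is the nearest square for most.

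Of 19 chemokines and NF-kB feedback genes tested in all cells, Ccl3 was the 1 called (0.102% of all genes were called higher). Of the 19, 18 had a log2 change above 0 (51.3% of all genes, median 1.01). In tMPP2 cells 17 of 18 were above 0 (51.7% of all genes, median 1.57). Cxcl2 was called there, where 0.229% of all genes were called higher. Ccl3, a chemokine for monocytes and T cells, was at 5.55, 3.08 and 26.3 CPM in spleen, whereas the 3 marrow-containing libraries held 3 counts together. The ratio of the summed counts was 207 (95% counting interval 70.4 to 1005). Cxcl1, a neutrophil chemokine outside the list, was at 19.4, 9.10 and 30.5 CPM against 0.58, 0.80 and 2.18 CPM (log2 change 4.07, SE 0.68, adjusted p = 0.0465). Cxcl2, its close relative, was at 141, 77.8 and 64.1 CPM in tMPP2 cells of spleen and at 11.1, 2.25 and 0 CPM in L71, L72 and L86 (log2 change 4.33, SE 0.77, adjusted p = 0.0261). Tnfaip3, an inhibitor of NF-kB, and Nfkbia, which holds NF-kB in the cytoplasm, had spleen above without overlap in both comparisons and did not pass (adjusted p = 0.170 and 0.237 in all cells).

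Taking the 4 early response lists as 1 set of genes, 44 of 70 tested in all cells had every spleen library above every other and 2 had the opposite (8.49% and 8.47% of all genes). In tMPP2 cells this was 35 and 2 of 68 (8.21% and 8.69% of all genes). The lists were chosen with earlier results of these data known, and their genes are not independent of each other. The counts are given as a description.

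Among genes outside those lists, Marcks, a substrate of protein kinase C at the membrane, was at 47.6, 62.04 and 39.5 CPM in the tMPP2 cells of spleen and at 6.59, 6.17 and 1.68 CPM in L71, L72 and L86 (log2 change 3.32, SE 0.50, adjusted p = 0.0129). In all cells Marcks was at 56.4, 52.5 and 46.4 CPM against 15.2, 6.46 and 9.51 CPM (log2 change 2.32, SE 0.35, adjusted p = 0.0367), with L71 the highest of the marrow-containing libraries. Neat1, a nuclear long non-coding RNA of paraspeckles, was at 190, 166 and 111 CPM against 36.99, 13.8 and 10.9 CPM in tMPP2 cells (log2 change 2.90, adjusted p = 0.00741). Tsc22d1, Phlda1, Tmem71 and Cldn10 were also called in tMPP2 cells, with log2 changes of 2.23, 3.33, 2.88 and 4.15. Bcl6, a transcriptional repressor, held 314 counts in the tMPP2 cells of spleen and 1 in the others, and 29.0, 2.42 and 11.9 CPM in L68, L69 and L70, so its level was uneven among spleen libraries (ratio of summed counts 451, 95% counting interval 80.3 to 17870). Among the genes called in all cells, Kcnk12, a potassium channel subunit, was at 36.96 to 52.5 CPM against 11.3 to 15.4 CPM (log2 change 1.78). Hist1h2bc, a histone gene with near-identical copies to which reads may have been split, was at 306 to 378 CPM against 127 to 185 CPM (log2 change 1.12). Tmsb10, an actin-binding peptide, differed least in size, at 2000 to 2254 CPM against 1224 to 1565 CPM (log2 change 0.59). The predicted transcript 8430408G22Rik, named after its values were seen because it was the remaining call, was at 18.4 to 30.0 CPM against 0.27 to 0.84 CPM (log2 change 5.42).

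By predicted type, the difference was not the same size in each library. In tMPP2 cells the 12 panel genes summed to 4534, 4430 and 4057 CPM in L68, L69 and L70 and to 1784, 840 and 645 CPM in L71, L72 and L86. In tMPP1 cells L71 (8 cells) reached 6019 CPM, above the spleen libraries at 3918, 5259 and 5837 CPM, and L72 and L86 were at 1159 and 1134 CPM. In tMPP5 cells L69 (6 cells) was at 1195 CPM, below L71 at 1561 CPM, while L68 and L70 were at 4044 and 3255 CPM. These sums rest on 5 to 23 cells each. No gene was called by edgeR in tMPP1 (0 of 9238, 422 at an unadjusted p under 0.05) or tMPP5 cells (0 of 9472, 523). The 4 early response lists had positive medians there, against -0.003 and -0.01 for all genes. They ran from 0.28 to 0.93 in tMPP1 and from 0.78 to 1.36 in tMPP5 cells. AP-1 genes had 0.79 and 1.36. In tMPP1 cells the NF-kB list had 9 genes above 0 and 7 below. Of 10 AP-1 genes there, 1 had spleen above without overlap and 1 the opposite (503 and 558 of all 9238 genes). In tMPP5 cells this was 4 and 0 of 10 (695 and 561 of all 9472 genes). The difference between types was not tested.

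**Figure D3:**
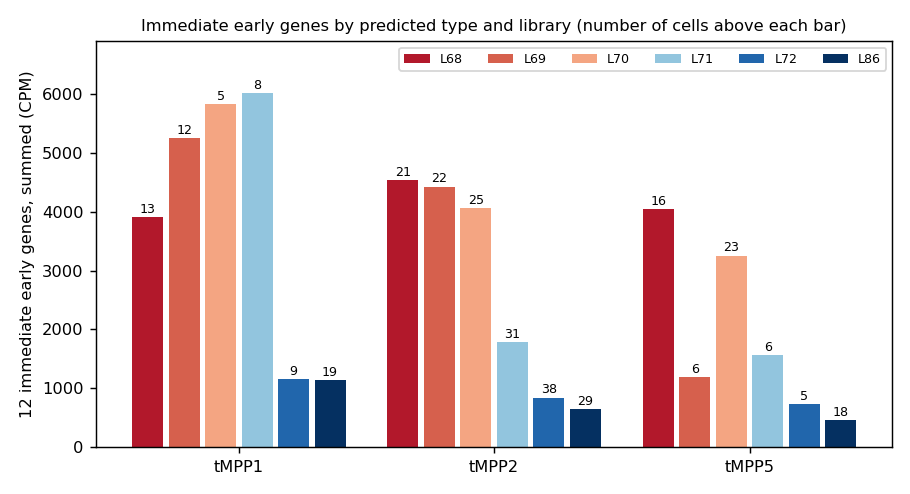
Summed CPM of the 12 immediate early genes by predicted type and library, with the number of cells above each bar. L71 is as high as spleen in tMPP1 cells and L69 is low in tMPP5 cells, whereas the groups are apart in tMPP2 cells (4057 to 4534 against 645 to 1784 CPM).

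Shares of predicted types were compared with an exact permutation test that 3 against 3 libraries cannot take below 0.1, so no difference could have passed. tMPP2 cells were 43.6% ± 2.98 of spleen cells and 59.3% ± 16.6 of marrow-containing cells (SD, n = 3 each, two-sided exact permutation p = 0.4, adjusted over 5 types 0.667). tMPP5 cells were 28.5% ± 15.4 and 15.8% ± 8.22 (exact permutation p = 0.3, n = 3 each), and tMPP1 cells 19.4% ± 8.81 and 20.1% ± 5.42 (exact permutation p = 0.9, n = 3 each). L72 and L71 had the highest tMPP2 shares (70.4% and 67.4%), above the spleen libraries at 40.4%, 44% and 46.3%, and L86 the lowest (40.3%). Without L86 the tMPP2 difference went from -15.8 to -25.3 percentage points, and without L72 to -10.3. The tMPP5 difference of 12.7 points became 20.9 without L69 and 5.62 without L70.

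Heat shock genes, which respond to temperature and handling, split in both directions. Of 19 tested in all cells 0 were called, 4 had spleen above without overlap and 8 the opposite (8.49% and 8.47% of all genes), with a median of 0.10. Hspa1a, an inducible chaperone with a near-identical copy that can take its reads, was at 140, 169 and 152 CPM in spleen and 52.3, 10.1 and 6.37 CPM in L71, L72 and L86 (log2 change 2.74, SE 0.59, adjusted p = 0.132). Hspa1b was at 74.1, 59.9 and 122 against 37.9, 0.94 and 6.80 unscaled CPM. Hspb1 had the largest change of the list, at 38.9, 35.4 and 52.5 against 6.75, 0 and 2.09 CPM (log2 change 3.845, SE 0.94, adjusted p = 0.172). Hspa1a and Hspb1 were among the 4 genes with spleen above, beside the 8 with the opposite. Hspa8, the constitutive form, was at 2633 to 2642 CPM in spleen and 3049 to 3241 CPM in the others (log2 change -0.25, adjusted p = 0.164). The sum of the list was 10900 ± 108 CPM in spleen and 11628 ± 122 CPM in the others (SD, n = 3 each). The handling of each organ before lysis is not described in the sources used here and cannot be told apart from the organ.

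In other libraries of the series the same sum was read by organ label. Summed over the 12 genes, steady state stem cell gates from bone marrow ranged from 1366 to 8922 CPM (6 libraries, median 7665). Those of libraries labelled bone marrow and spleen ranged from 4724 to 11973 CPM (6 libraries, 2 of them also labelled day 7, median 7696), so the medians were close. Multipotent progenitor gates from bone marrow ranged from 212 to 4237 CPM (12 libraries, median 1132). Progenitor gates of libraries labelled bone marrow and spleen ranged from 1476 to 4363 CPM (5 libraries, 1 of them also labelled day 7, median 3263). Transplanted cells of day 7 held 250 to 1573 CPM in 8 libraries, none labelled spleen alone. The day 1 library labelled bone marrow held 7028 CPM, and the 2 of day 1 labelled bone marrow and spleen held 1167 and 2260 CPM. On day 3, 3 libraries labelled bone marrow and spleen held 584 to 2336 CPM. Libraries of lymphocytes labelled spleen held 6916 and 6980 CPM, and those labelled bone marrow and spleen 1952 and 3743 CPM. Over the 7 day 5 libraries, L66 included, the genes whose log2(CPM + 1) followed Nr4a1 most closely included Hes1, 1700113A16Rik, Rhob and Dusp1 (Pearson r 0.98 to 0.99 over 7 libraries that share these groups and differ in depth), a description with no test.

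Notch pathway genes had positive changes without a call: all 11 tested in all cells were above 0 (51.3% of all genes, median 1.28), 4 of them without overlap (8.49% of all genes). Hes1, a repressor induced by Notch, was at 248, 278 and 226 CPM in spleen and 142, 33.5 and 12.9 CPM in L71, L72 and L86 (log2 change 1.99, adjusted p = 0.268). Notch1, the receptor, was at 55.8, 51.5 and 29.0 CPM against 21.3, 18.5 and 15.9 CPM (log2 change 1.29, adjusted p = 0.173). Of 9 lymphoid priming genes all were above 0 (median 0.83) and 0 were called. Flt3, a lymphoid-primed progenitor receptor, was at 19.6, 19.3 and 15.9 CPM against 6.81, 2.46 and 12.7 CPM (adjusted p = 0.421), and Dntt, an early lymphoid enzyme, was at 0 in L72 and L86 and at 1.37 to 4.91 CPM in the others. Itgal, an integrin of leukocytes in the homing list, was called in tMPP2 cells (log2 change 2.06, SE 0.40, adjusted p = 0.0468) at 45.3, 105 and 74.4 CPM against 25.5, 17.7 and 10.3 CPM; the other 25 homing genes tested were not called. Cxcr4, the receptor that retains stem cells in marrow, did not separate the groups, at 4.59 to 12.4 CPM in spleen and 4.10 to 8.54 CPM in the others (log2 change 0.43, SE 0.62, adjusted p = 0.865).

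**Figure D4:**
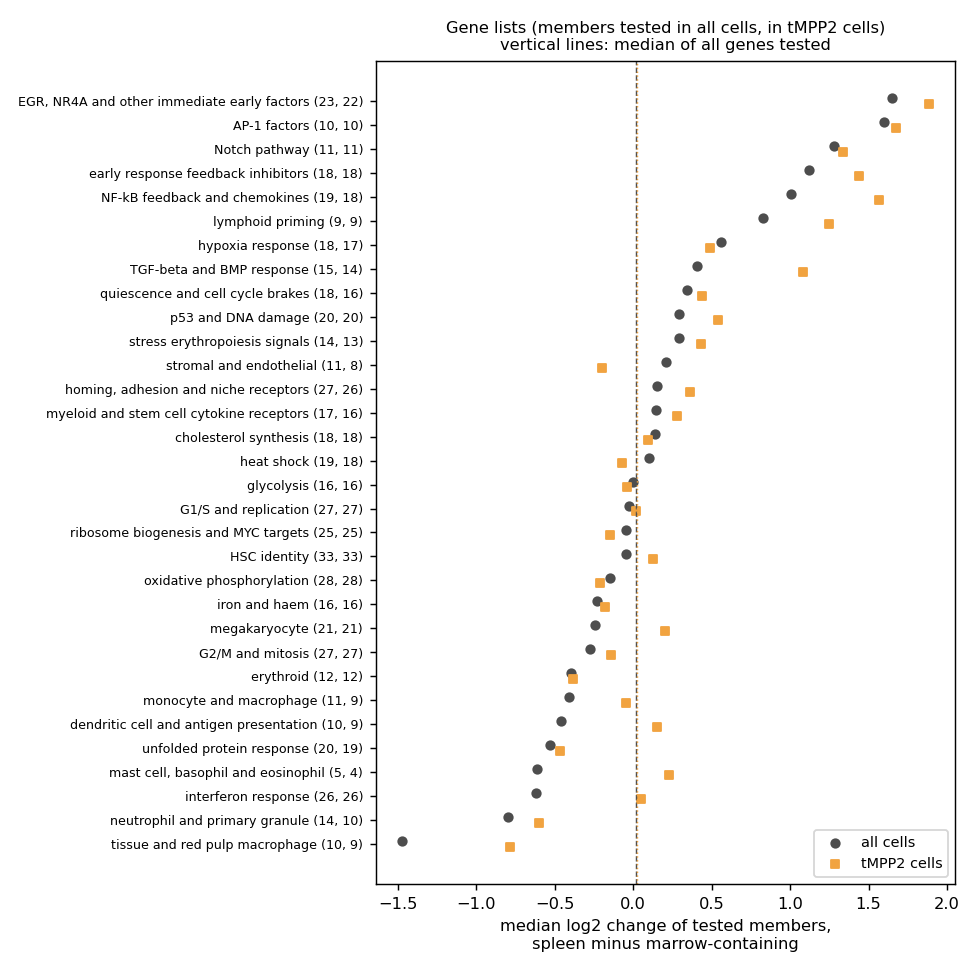
Median log2 change (spleen minus marrow-containing) of each gene list with at least 5 members tested in all cells, in all cells (circles) and tMPP2 cells (squares), with the number of members tested. The EGR and NR4A, AP-1 and Notch lists lie furthest to the right (1.65, 1.60 and 1.28 in all cells), and the vertical lines mark all genes tested (0.02 and 0.03).

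The edgeR test called 4 genes lower in spleen in all cells and 7 in tMPP2 cells; DESeq2 called 99 lower and 105 higher in all cells, and 1001 genes had spleen below without overlap and 1003 had spleen above. Slc14a1, a urea transporter, was at 28.2, 24.9 and 25.2 CPM in spleen and 69.3, 92 and 77.5 CPM in L71, L72 and L86 in all cells (log2 change -1.61, SE 0.22, adjusted p = 0.0218). It was also called in tMPP2 cells, at 31.3 to 40.8 CPM against 85.3 to 148 CPM (log2 change -1.67, SE 0.29, adjusted p = 0.0261). L71 was the lowest of the 3 marrow-containing libraries in both comparisons and still above every spleen library. Aldh1a1, a retinaldehyde dehydrogenase, was at 13.3, 10.0 and 14.4 CPM against 39.7, 49.4 and 61.5 CPM (all cells, log2 change -1.995, SE 0.30, adjusted p = 0.0367). Tuba8, an alpha tubulin, was at 35.3, 33.6 and 38.4 CPM against 89.2, 108 and 137 CPM (all cells, log2 change -1.64, SE 0.22, adjusted p = 0.0184). In tMPP2 cells both kept the order without passing (adjusted p = 0.0549 and 0.0809).

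Megakaryocyte and erythroid genes did not pass the test. Cd9, a tetraspanin of megakaryocytes, was at 131, 169 and 136 CPM in spleen and 229, 286 and 295 CPM in L71, L72 and L86 (all cells, log2 change -0.89, adjusted p = 0.0832). Gata1, the erythroid and megakaryocyte factor, was at 8.76, 11.8 and 18.9 CPM against 24.2, 33.2 and 49.99 CPM (log2 change -1.44, adjusted p = 0.224). Of 12 erythroid genes tested, 11 had a log2 change below 0 (median -0.40), 4 without overlap (8.47% of all genes) and 0 called. Of 21 megakaryocyte genes 13 were below 0 (median -0.24) in all cells and 9 of 21 (median 0.20) in tMPP2 cells. Pf4, a platelet chemokine, overlapped at 252 to 412 CPM against 352 to 1048 CPM. Among stem cell genes 33 were tested and 0 called: Hlf, a stem cell factor, was at 84.8 to 131 CPM against 52.5 to 75.8 CPM (log2 change 0.74, adjusted p = 0.296), and Procr, a stem cell surface receptor, and Mecom, a stem cell factor, overlapped (log2 changes 0.13 and -0.09).

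In tMPP2 cells, Exosc2, an exosome subunit, was at 292, 232 and 271 CPM in spleen and 648, 405 and 689 CPM in L71, L72 and L86 (log2 change -1.13, SE 0.19, adjusted p = 0.0204). Ran, the nuclear transport GTPase, differed least, at 1205 to 1341 CPM against 1725 to 1816 CPM (log2 change -0.46, adjusted p = 0.0369). Lrr1 and S100a6 were also called there, at 9.43 to 10.96 CPM against 34.1 to 48.5 CPM for Lrr1 and at 104 to 176 CPM against 282 to 375 CPM for S100a6. The unfolded protein response list had 15 of 20 tested genes below 0 in all cells (median -0.53) and 0 called, and 9 of the 20 had spleen below without overlap (8.47% of all genes). Manf, a factor of the endoplasmic reticulum, was nearest to a call, at 179 to 210 CPM against 299 to 419 CPM (log2 change -0.93, SE 0.16, adjusted p = 0.0512). Of 28 oxidative phosphorylation genes 25 were below 0 (median -0.15), 7 had spleen below without overlap (8.47% of all genes) and 0 were called. In tMPP2 cells 27 of 28 were below 0 (median -0.21), 12 had spleen below without overlap (8.69% of all genes) and 0 were called. G2/M genes had 24 of 27 below 0 in all cells (median -0.28), with 16 of 27 in tMPP2 cells (median -0.14), and 0 called in each. Mki67, a proliferation marker, was at 159 to 289 CPM in spleen and 146 to 321 CPM in the others, so the groups overlapped.

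**Figure D5:**
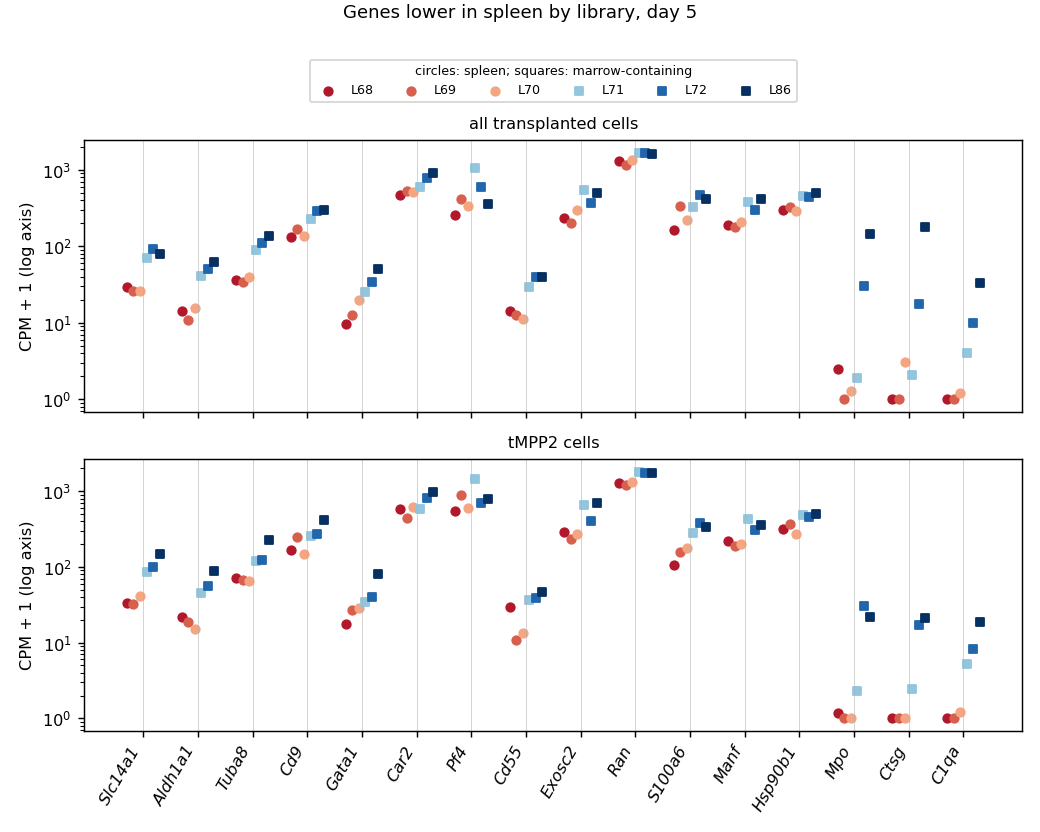
CPM + 1 (log axis) of 16 genes with lower mean CPM in spleen, by library (circles spleen, squares marrow-containing), in all transplanted cells (upper) and tMPP2 cells (lower). Slc14a1, Aldh1a1 and Tuba8 have all squares above all circles in both panels, and Mpo, Ctsg and C1qa rise from near 0 to their highest values in L72 or L86.

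A few myeloid genes were called lower in spleen, and their levels differed widely among the marrow-containing libraries. As a list, the 14 neutrophil and primary granule genes tested in all cells held 0 calls and 0 genes without overlap in either direction (9 below 0), and the summed level overlapped at 840 ± 924 CPM in spleen and 1063 ± 974 CPM in the others (SD, n = 3 each). Of 10 tissue macrophage genes 1 was called lower (0.0338% of all genes) and 4 had spleen below without overlap (8.47% of all genes). C1qa, a complement gene of tissue macrophages, had 0, 0 and 0.21 CPM in L68, L69 and L70 and 3.02, 9.02 and 32.4 CPM in L71, L72 and L86 (all cells, log2 change -7.39, SE 1.24, adjusted p = 0.0465). The change of C1qa turned to 1.53 when L66, the spleen library of 8 cells, was included. L66 held 62.5% tMPP3 and 25% tGM1 cells, and its 8 macrophage markers summed to 1070 CPM. In the 6 libraries compared this sum was 2.09 to 5.46 CPM in spleen and 11.4 to 128 CPM in the others. Cd5l was at 0 in all of the 6 but L86. C1qa was counted in 4 of 156 spleen cells, and in 4 of 46, 16 of 54 and 31 of 72 cells of L71, L72 and L86. In tMPP2 cells Mpo and Ctsg, enzymes of primary granules, were called lower: Mpo held 1 count in spleen against 571 (ratio 398, 95% counting interval 71.1 to 15730) and Ctsg 0 against 361 (at least 83.8-fold, with a floor of 3 counts over the group). Mpo was at 1.28, 29.5 and 20.6 CPM in L71, L72 and L86, so L71 was near the spleen level. Over all cells both genes overlapped between the groups. Of 26 interferon response genes 23 were below 0 in all cells (median -0.62), and the summed level was 4237 CPM in L86 against 1138 to 1558 CPM in the other 5 libraries; in tMPP2 cells 12 of 26 were below 0 (median 0.05). The part of macrophage or granulocyte RNA in these results was not tested.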

How the data were processed

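Counts per gene and cell were deposited by the authors as whole numbers without normalization. The submitters' processing notes name TopHat, HTSeq and the mm10 build (GRCm38) without versions, and whether a count is a read or a molecule is not given. Cell origin and predicted type came from the deposited annotation. In the 6 libraries 48 of 376 cells had no annotation and were left out. The table held 0 mitochondrial genes, and 0 cell columns were identical.

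Counts of annotated transplanted cells were summed per library, and the library was the replicate (3 against 3). Each sum held 11463810 to 19103472 counts. Genes passing filterByExpr were tested with edgeR 4.0.16 (TMM factors, quasi-likelihood F test, two-sided, Benjamini-Hochberg over all genes tested, called under 0.05) in R 4.3.3. The same was done for tMPP2 cells (at least 5 per library). CPM (counts per 1000000) of single genes carry TMM factors; summed CPM of lists and markers, CPM of single cells and of predicted types do not. Shares used exact permutation tests over libraries, after thinning to 20000 counts per cell, with python 3.11.15, scipy 1.17.1 and pandas 2.3.3. Intervals are Clopper-Pearson at 95% confidence and floors are 3 counts; both cover counting error only, since no molecular identifiers are stated. Sequences are from RefSeq (GRCm38.p6) and positions from GENCODE on GRCm38.

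Named genes were, per comparison and direction, the 12 called genes with the largest change whose groups did not overlap and that had a count in all libraries of the higher group, filled with the smallest p; up to 4 members of each of 36 lists; and 20 fixed genes. Predicted transcripts, ribosomal, Xist and Y-linked genes were left out of the first part. Only some of them are described, and some are not reported here. The members, lists and tests were chosen with earlier results of these data known. On simulated counts, 100 genes were changed 4-fold and 100 were changed 2-fold. At 4-fold, 74 were recovered in the comparison of all cells (11452 genes) and 58 in that of tMPP2 cells (10622 genes). At 2-fold, 22 and 17 were recovered. A further 8 and 9 genes that had not been changed were called. The changed genes were drawn from those above a minimum mean count, so recovery of genes with few counts was not measured.

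Alternatives were RLE factors, no filter, a filter of 1 CPM, DESeq2 1.42.0, limma 3.58.1 (voom, and mean log2 values with a pseudocount of 1), a fit with all transplanted libraries of single days, leaving out each library, L72 alone as the marrow group, L66 included, tMPP cells alone, evened types (the mean over the 3 types held by every library of their summed CPM, tested with limma) and, chosen after the data were seen, tMPP1 and tMPP5 cells alone.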

Additional observations from a re-analysis of the deposited data

Results flagged for a closer look

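The sum of the 12 immediate early genes was also read in cells outside the comparison. These were L66, L77 and the unannotated cells of each of the 6 libraries compared. A sum was flagged if it exceeded 2314 CPM, the highest of the marrow-containing libraries (681 to 2314 CPM). The 6 flagged sums therefore lie above that range by the rule, and they are no separate test. L66, the spleen library of 8 cells left out above, stood at 2419 CPM, close to L71. L77, a library of both organs that pools day 5 and day 7, stood at 4285 CPM, within the range of the spleen libraries. Cells without annotation summed to 2865 CPM in L68 (4 cells), 3659 CPM in L69 (6 cells), 3207 CPM in L70 (2 cells) and 3082 CPM in L71 (10 cells). The unannotated cells of L72 (10 cells) and L86 (16 cells) stood at 687 and 756 CPM and were not flagged.

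Among the 4 day 5 spleen libraries, L66 lay far below the others in Junb, at 150 CPM, and in Zfp36, at 171 CPM, below L71 in both (209 and 258 CPM). L66 held 0% tMPP1, tMPP2 and tMPP5 cells, predicted types that every other day 5 library held. These were 2 flags among 13 groups of libraries examined for such a gap, and chance gives about 1 in 20.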

How the results depend on the processing

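The count of called genes depended on the method. In all cells (16 called) it was 102 without the count filter, 204 with DESeq2 (51.5% of them higher in spleen, against 75%), 79 with limma voom, 87 with limma on mean log values and 129 against L72 alone; it was 0 in the fit with all transplanted libraries of single days (456 genes at an unadjusted p under 0.05), with L66 included (568), in tMPP1 cells alone and in tMPP5 cells alone. In tMPP2 cells (32 called) it was 194, 196 (55.1% higher, against 78.1%), 98, 113 and 50, and 0 in the fit with all transplanted libraries (504). RLE factors, a 1 CPM filter and tMPP cells alone gave 20, 21 and 24 in all cells. A limma fit of evened types gave 22, 8 of them among the 16, where limma on mean log values gave 87. All 16 calls were among those of DESeq2, and 30 of the 32. Leaving out 1 library gave 0 to 89 calls in all cells and 0 to 69 in tMPP2 cells. Of 15 called genes named in all cells 12 had a value in all 19 alternatives and kept their direction; Ccl3 (17 values) and Cxcl1 (18) kept theirs, and C1qa (17) did not. In tMPP2 cells 24 of 26 had a value in all 15 and kept their direction, as did Mpo and Ctsg in 14. With L66 included the log2 change was 1.53 for C1qa, 1.85 for C1qb, 1.94 for Ctsg and 3.21 for Mpo. L66 held 62.5% tMPP3, 25% tGM1 and 0% tMPP2 cells. Its neutrophil and primary granule list summed to 24330 CPM, against 262 to 2165 CPM in the libraries compared. In tMPP1 cells it was -0.28 for Maff, -1.25 for Cldn10, -0.79 for Flt3, -0.28 for Procr and 0.82 for Mki67. Other genes with small changes turned too. Cxcr4 was -0.17 against L72 alone and -0.72 in tMPP5 cells, Mecom 0.74 in tMPP5 cells, and Mki67 0.19 with evened types and 0.025 in tMPP5 cells. In tMPP2 cells Mecom was -0.075 with voom and -0.26 against L72 alone, and Mki67 -0.040 with voom, -0.34 on mean log values and -0.25 against L72 alone. Leaving out 1 library gave -0.12 to 0.85 for Cxcr4, -0.32 to 0.21 for Mecom and -0.30 to 0.24 for Mki67 in all cells, -0.49 to 0.78, -0.29 to 0.42 and -0.14 to 0.23 in tMPP2 cells, and a difference of -3.52 to 4.35 percentage points in the tMPP1 share. The causes were not tested. No paired analysis was possible because the labels give no replicate numbers that groups share.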
